A study of Homo sapiens with 6 samples.

Results

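Long noncoding RNA genes were read in HSC3, a cell line established from a human oral squamous carcinoma, after treatment with E7386 or with its solvent dimethyl sulfoxide (DMSO). The genes were chosen by symbol and by level: symbols made of LINC or SNHG and a number, plus MALAT1, NEAT1, H19 and GAS5, with a mean of at least 4 over the 6 arrays. The symbol rule found 751 of the 23786 genes in the deposited table, and 80 of these reached the mean of 4. They were 60 LINC-numbered genes, 16 SNHG-numbered genes and the 4 genes named singly. RefSeq annotates all 80 as long noncoding RNA genes.

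The DMSO group was 3 wells given 0.1% DMSO, and the E7386 group was 3 wells given 0.1 µM E7386 dissolved in DMSO. The compound E7386 has been described as blocking the binding of β-catenin, through which Wnt signals reach the genes, to CREB-binding protein, a coactivator of transcription. Wells were treated 12 to 24 h after seeding, at about 50% confluency, and harvested 48 to 64 h later. All wells held the same line, and total RNA was labelled with biotin and read on a microarray. The titles name biological replicates, but whether the wells stem from separate experiments is not stated. The p-values therefore measure only how far these wells spread, and that spread may be technical.

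Values are log2 expression values made by RMA (robust multi-array average), which corrects background, equalises the distributions of the arrays and summarises the probes of a gene. Array medians lay between 3.74 and 3.79. RMA gives no detection call and compresses the differences of dim genes. The mean of 4 is therefore a level slightly above the median gene and not a proof of expression. Correlations across genes were 0.992 to 0.995 within groups and 0.982 to 0.985 between groups. All 10 measured squamous markers had means of at least 4, from 4.11 for KRT16 to 11.2 for KRT5. The summed log2 level of these 10 ran from 85.2 to 85.9 in DMSO wells and from 83.8 to 84.4 in E7386 wells. Within this list KRT14 fell by 1.64, KRT5 fell by 0.79 and DSG3 rose by 0.60, and their part in the results was not tested. Markers of other cell types were mostly below 4: 6 of 8 for fibroblasts, 6 of 7 for leukocytes and 5 of 6 for endothelium, with none of these 21 called. Their summed levels were 21.3 to 22.98 and 21.5 to 22.1 for fibroblasts, 19.8 to 21.1 and 18.7 to 20.0 for leukocytes, and 14.2 to 14.7 and 13.3 to 13.8 for endothelium, in DMSO and E7386 wells in that order. Among the exceptions, CD68 had a mean of 9.04 and COL1A1 one of 5.27.

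Long noncoding RNAs act without being translated. MALAT1 gathers in nuclear speckles, the stores of splicing factors, and NEAT1 is the scaffold on which paraspeckles are built. SNHG genes and GAS5 carry small nucleolar RNAs (snoRNAs) in their introns, which guide the chemical modification of ribosomal RNA, while the spliced host transcripts are often degraded by nonsense-mediated decay. H19 is an imprinted gene expressed from the maternal allele beside IGF2, and most LINC-numbered genes are intergenic genes whose function is little known.

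The promoter sequences of the genes that rose by at least 2-fold are shown first, as far as RefSeq holds them, because these genes carry the largest differences with E7386. Each window runs 5′ to 3′ from 250 bases before to 50 bases after the annotated transcript start in RefSeq on GRCh38.p14. Capitals mark matches on either strand to the motifs listed after the sequences. LINC03033 has its window at chr14:61570290-61570589 (plus strand), LINC00963 at chr9:129488410-129488709 (plus strand) and LINC00941 at chr12:30795431-30795730 (plus strand). SNHG32 has its window at chr6:31834666-31834965 (plus strand), LINC00839 at chr10:42475241-42475540 (plus strand) and SNHG17 at chr20:38435279-38435578 (minus strand). No source used here gives the build of the array's probes, so the windows describe the genes and not the probes.
LINC03033: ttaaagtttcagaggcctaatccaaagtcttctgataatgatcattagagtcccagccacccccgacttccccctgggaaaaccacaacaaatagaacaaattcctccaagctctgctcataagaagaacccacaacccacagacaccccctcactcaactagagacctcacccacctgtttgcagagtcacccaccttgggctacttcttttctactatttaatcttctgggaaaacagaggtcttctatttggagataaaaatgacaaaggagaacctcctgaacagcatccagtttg
LINC00963: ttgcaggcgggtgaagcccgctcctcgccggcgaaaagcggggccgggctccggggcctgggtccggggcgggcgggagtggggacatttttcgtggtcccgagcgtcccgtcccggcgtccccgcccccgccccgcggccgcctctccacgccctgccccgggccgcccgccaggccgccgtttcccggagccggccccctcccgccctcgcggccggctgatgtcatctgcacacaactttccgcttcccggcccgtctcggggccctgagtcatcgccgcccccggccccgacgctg
LINC00941: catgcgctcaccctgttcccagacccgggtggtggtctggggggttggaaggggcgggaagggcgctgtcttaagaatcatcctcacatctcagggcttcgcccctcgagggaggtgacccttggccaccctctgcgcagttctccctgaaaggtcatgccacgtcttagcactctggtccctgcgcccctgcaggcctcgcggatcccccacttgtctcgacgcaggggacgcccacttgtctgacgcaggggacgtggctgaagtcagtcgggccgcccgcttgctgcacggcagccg
SNHG32: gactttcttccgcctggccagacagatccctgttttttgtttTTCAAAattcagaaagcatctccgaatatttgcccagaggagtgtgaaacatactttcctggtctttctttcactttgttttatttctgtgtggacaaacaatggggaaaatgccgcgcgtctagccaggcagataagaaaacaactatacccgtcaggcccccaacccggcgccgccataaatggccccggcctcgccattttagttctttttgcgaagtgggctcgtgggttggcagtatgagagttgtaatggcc
LINC00839: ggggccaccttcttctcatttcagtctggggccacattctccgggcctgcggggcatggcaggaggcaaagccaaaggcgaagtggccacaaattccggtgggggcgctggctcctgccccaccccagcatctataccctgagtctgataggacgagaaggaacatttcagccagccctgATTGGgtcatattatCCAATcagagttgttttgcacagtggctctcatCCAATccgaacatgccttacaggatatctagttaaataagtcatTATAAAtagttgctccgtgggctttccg
SNHG17: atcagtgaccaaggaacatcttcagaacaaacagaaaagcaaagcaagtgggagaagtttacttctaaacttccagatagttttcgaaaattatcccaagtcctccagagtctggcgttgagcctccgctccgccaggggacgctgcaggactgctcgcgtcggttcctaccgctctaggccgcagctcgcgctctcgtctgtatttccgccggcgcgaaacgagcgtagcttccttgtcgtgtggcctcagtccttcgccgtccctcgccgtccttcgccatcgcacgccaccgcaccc

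The motifs searched, on both strands, were the E-box CACGTG, the cyclic AMP response element TGACGTCA, the composite site TGATGNAA of ATF4 and C/EBP, the core site CTTTGAT of the Wnt effectors TCF and LEF, the cell cycle homology region TTTGAA, the TATA box TATAAA and the CCAAT box. In these letters no motif contains another. In the printed windows, LINC00839 held 3 CCAAT boxes and the letters TATAAA, which began at base 23 of the transcript and not before its start. SNHG32 held the cell cycle homology region, and the other 4 held none of these letters. Of the 80 genes, 59 have a window. The TATA box letters, counted at any place in the window, were in 13 of 59 (22%) against 14.0% of 27305 genes with a window. Only in SNHG7, MALAT1 and SNHG19 did they begin at -30 from the start. The CCAAT box was in 22 (37.3%) against 39.7%. The E-box was in 4 of 59 against 8.77% of all genes, the cyclic AMP element in 2 against 2.25%, the ATF4 composite site in 1 against 4.46% and the cell cycle homology region in 5 against 18.2%. CTTTGAT was in none of the 59 windows and in 3.18% of all genes. A match is a string of letters and not a shown binding site.

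More of the 80 genes were higher than lower with E7386. Of the 80, 29 were called (limma adjusted p under 0.05, adjusted over all 23786 genes), 24 of them higher and 5 lower, and 51 did not pass. Of all genes in the data, 18.6% of genes were called, 9.93% higher and 8.69% lower. Among the 11282 genes with a mean of at least 4, a background under the same threshold, 34.1% were called, 18.6% higher and 15.5% lower. That background is not matched in level. Its median level was 6.383 against 5.015 for the 80, and its median SD within groups 0.112 against 0.179. The share called among the 80 was 36.2%, with 30% higher and 6.25% lower. The median difference over the 80 was 0.16, against 0.03 over all genes with a mean of at least 4 and -0.02 over the whole table. Fewer cells of a kind and less RNA per cell cannot be told apart in these bulk samples, here or in any result that follows.

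Groups did not overlap in 39 of the 80 genes, against 57.7% of all genes with a mean of at least 4. The difference was positive in 50 of the 80. Per well, the median level of the 80 genes was 4.99, 5.14 and 4.92 in DMSO and 5.21, 5.16 and 5.22 with E7386, so the groups did not overlap but nearly met. The same lean was present among the other long noncoding genes: of 251 with a mean of at least 4, 27.5% were called higher and 7.17% lower, with a median difference of 0.18. Protein-coding genes with a mean of at least 4 were called higher in 18.7% and lower in 16.4% of 9838 cases. The shares of the classes were not tested against each other.

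**Figure D1:**
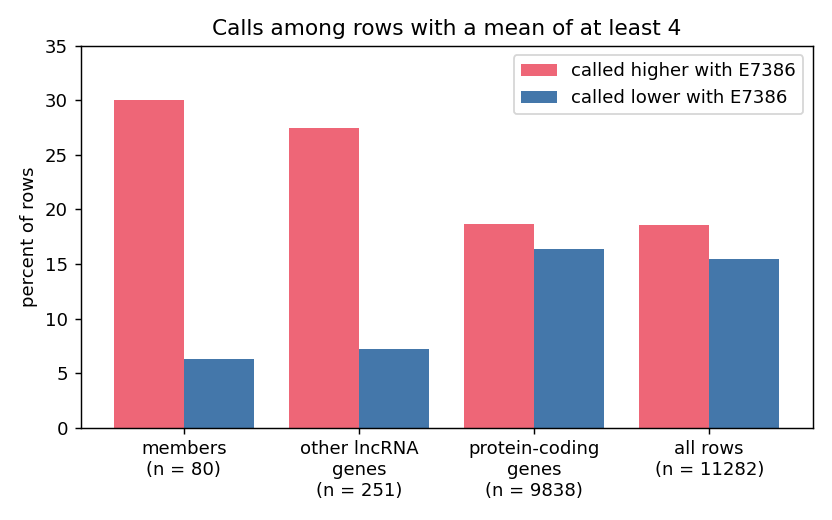
Percent of genes called higher (red) and lower (blue) with E7386, on the vertical axis, among the 80 chosen genes, 251 other long noncoding genes, 9838 protein-coding genes and all 11282 genes with a mean log2 value of at least 4. Both noncoding classes have a higher bar of 30% or 27.5% beside a lower bar of 6.25% or 7.17%, whereas the protein-coding bars are 18.7% and 16.4%.

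Selection on a mean over both groups lets in genes through the group where they are high. In DMSO alone, 10 of the 80 were below 4 and came in through their E7386 values. Of these 10, 6 were called higher, which their selection favours: LINC03033, LINC02693, LINC02709, SNHG20, LINC00944 and LINC00847. A pair of genes was below 4 with E7386 and not called. Among the 68 genes with a mean of at least 4 in both groups, 18 were called higher (26.5%) and 5 lower (7.35%), and the median difference was 0.09. No background filtered in each group was computed. Without E7386 well 2 the 80 genes gave 19 calls in place of 29, and the 5 lower calls became 3 without DMSO well 1, DMSO well 2 or E7386 well 2.

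**Figure D2:**
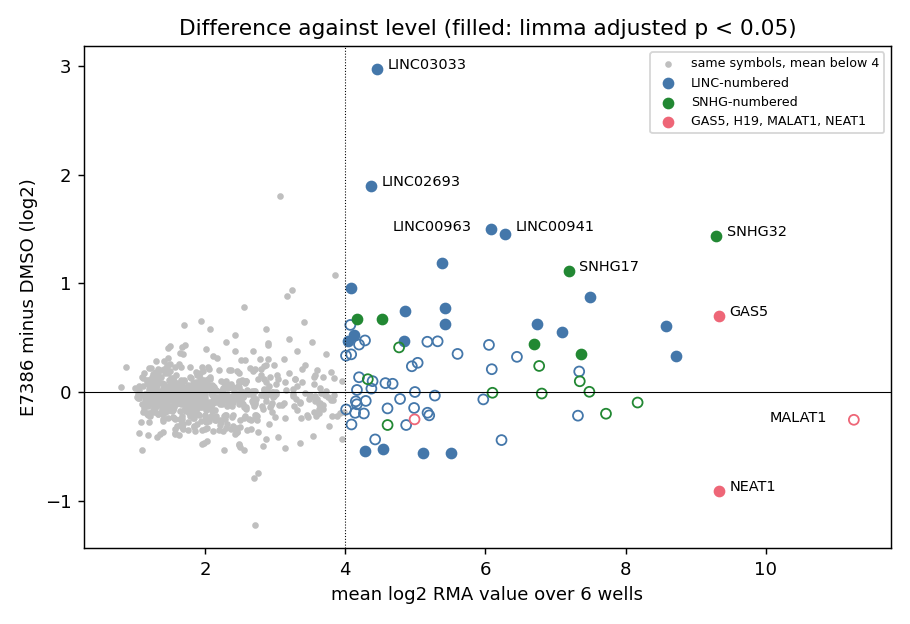
Difference, E7386 minus DMSO in log2 units, against the mean log2 value over 6 wells for all 751 genes of the symbol rule. Coloured circles are the 80 genes to the right of the dotted line at 4 (blue LINC-numbered, green SNHG-numbered, red GAS5, H19, MALAT1 and NEAT1), filled where called, and grey points are the 671 genes below it. LINC03033 lies highest at 2.98 and NEAT1 lowest at -0.92 among the coloured circles.

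Among the 60 LINC-numbered genes, 17 rose, 4 fell and 39 did not pass, with a median difference of 0.20. Of the 17, 5 (LINC03033, LINC02693, LINC02709, LINC00944 and LINC00847) were below 4 in DMSO and were selected through their E7386 values. With a mean of at least 4 in both groups, 12 of 49 rose (24.5%) and 4 fell (8.16%), and the median difference was 0.08. The background of 18.6% higher and 15.5% lower holds all genes with an overall mean of at least 4. It was not filtered in each group, so the 2 sets are not matched. LINC03033, which RefSeq also lists as LncRNA-CAF and which was described in the fibroblasts of oral squamous tumours, gave 2.69, 3.08 and 3.13 in DMSO and 5.92, 5.78 and 6.13 with E7386. All 3 DMSO wells lay below the level of the median gene and all 3 E7386 wells well above it. The rise was 2.98 ± 0.15 (SE, n = 3 per group) on the log2 scale, 7.88-fold (limma adjusted p = 5.9e-05). Since RMA compresses such dim values, the size of this rise is uncertain. Of the 8 fibroblast markers none was called. COL1A1 and THY1 had means of 5.27 and 4.18 and the other 6 lay below 4, from 1.23 for LUM to 3.46 for COL1A2, and their part in the rise was not tested.

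LINC02693, formerly an open reading frame of chromosome 17, gave 3.29, 3.33 and 3.63 in DMSO and 5.27, 5.26 and 5.41 with E7386. The groups were separated by more than 1 log2 unit, again from a dim start. It rose by 1.90 ± 0.12 (SE), 3.72-fold (limma adjusted p = 0.0001). LINC00963, also named MetaLnc9 and studied as a promoter of metastasis, gave 5.18, 5.44 and 5.38 in DMSO and 6.80, 6.87 and 6.83 with E7386. Its E7386 wells differed from each other by less than 0.1 and lay far above every DMSO well. It rose by 1.499 ± 0.098 (SE), 2.83-fold (limma adjusted p = 0.00014).

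LINC00941, reported to restrain the differentiation of keratinocytes, gave 5.60, 5.66 and 5.39 in DMSO and 6.77, 7.16 and 7.10 with E7386. E7386 well 1 was the lowest treated well and still stood clear of the DMSO wells. It rose by 1.46 ± 0.13 (SE), 2.75-fold (limma adjusted p = 0.00047). LINC00839 gave 4.79, 4.87 and 4.69 in DMSO and 5.93, 6.00 and 5.97 with E7386. Its spread within groups was under 0.1 in SD, and the groups did not overlap. It rose by 1.18 ± 0.09 (SE), 2.27-fold (limma adjusted p = 0.00021). LINC00673, also named SLNCR1, lies beside SOX9 and gave 7.14, 6.92 and 7.13 in DMSO and 8.06, 7.84 and 7.90 with E7386. The treated wells were all above the DMSO wells, and it rose by 0.87 ± 0.11 (SE), 1.83-fold (limma adjusted p = 0.0017). The calls of these 6 genes held without any 1 well.

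**Figure D3:**
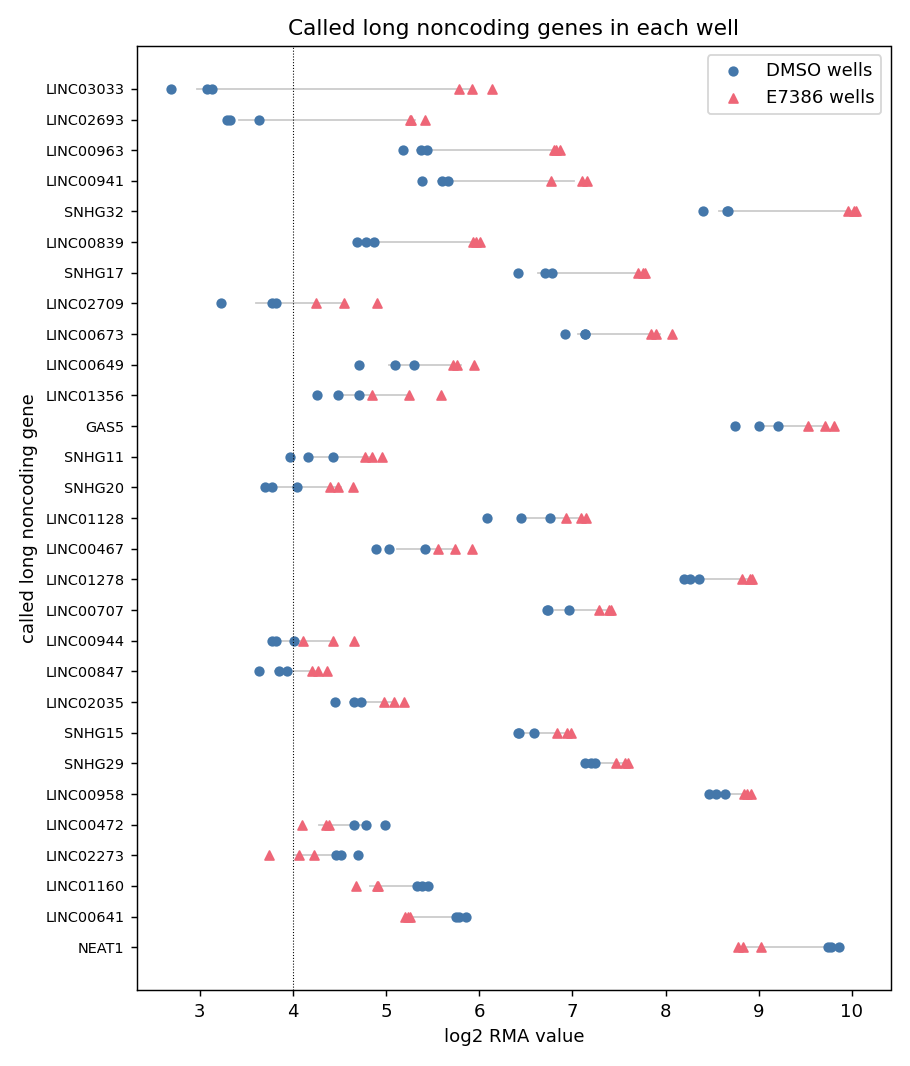
Log2 RMA value (horizontal axis) in each DMSO well (blue circles) and each E7386 well (red triangles) of the 29 called genes, ordered by difference, with grey lines joining the group means and a dotted line at 4. The groups do not overlap in any of the 29 genes, which their calling on these same wells favours. In LINC03033 they run from 2.69 to 3.13 and from 5.78 to 6.13.

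The other named rises included some calls that rested on particular wells. LINC02709 gave 3.82, 3.77 and 3.22 in DMSO and 4.25, 4.54 and 4.90 with E7386. DMSO well 3 was the lowest and E7386 well 3 the highest, and the groups did not overlap. It rose by 0.96 ± 0.21 (SE, limma adjusted p = 0.018), a call lost without E7386 well 2 (0.057) or E7386 well 3 (0.056). LINC00649 rose by 0.77 ± 0.16 (SE), from 4.71, 5.30 and 5.09 to 5.95, 5.72 and 5.76 (limma adjusted p = 0.013). DMSO well 1 was its lowest value, and the call held without any 1 well. LINC01356 rose by 0.74 ± 0.20 (SE), from 4.25, 4.71 and 4.48 to 5.58, 4.85 and 5.24 (limma adjusted p = 0.038). Its DMSO well 2 and E7386 well 2 were only 0.145 apart, and the call was lost without DMSO well 1 (0.11), DMSO well 3 (0.094), E7386 well 1 (0.091) or E7386 well 3 (0.10). LINC00958, also named BLACAT2, rose by 0.33 ± 0.09 (SE), from 8.47, 8.64 and 8.54 to 8.92, 8.87 and 8.84 (limma adjusted p = 0.038). Without any well but DMSO well 2 that call was lost, at adjusted p of 0.091 to 0.11. The other 7 called LINC-numbered genes rose by 0.47 to 0.63 (limma adjusted p of 0.0033 to 0.046).

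The 4 LINC-numbered genes that fell did so by less than 2-fold. LINC00641 gave 5.86, 5.75 and 5.78 in DMSO and 5.24, 5.21 and 5.25 with E7386. Both groups were tight and did not overlap. It fell by 0.56 ± 0.08 (SE) on the log2 scale (limma adjusted p = 0.0035). LINC01160 gave 5.39, 5.33 and 5.45 in DMSO and 4.67, 4.90 and 4.91 with E7386. Every treated well was lower than every DMSO well, and it fell by 0.56 ± 0.10 (SE, limma adjusted p = 0.0074). Both calls held without any 1 well.

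LINC02273 gave 4.51, 4.70 and 4.46 in DMSO and 4.22, 4.07 and 3.75 with E7386. The last of these was its only well below 4. It fell by 0.55 ± 0.14 (SE, limma adjusted p = 0.032), and the call was lost without any well but E7386 well 1, at 0.059 to 0.099. LINC00472, also named P53RRA, gave 4.99, 4.78 and 4.65 in DMSO and 4.36, 4.10 and 4.38 with E7386. The groups did not overlap. It fell by 0.53 ± 0.13 (SE, limma adjusted p = 0.024), a call lost without DMSO well 1 (0.066), DMSO well 2 (0.063), E7386 well 1 (0.0504) or E7386 well 2 (0.081).

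The 39 LINC-numbered genes that did not pass had differences of -0.44 to 0.62, and in 8 of them the groups did not overlap. The share without overlap among all genes that did not pass was not computed, so nothing is read from the 8. LINC01061 had a difference of 0.00 with a 95% interval from -0.66 to 0.66, so a difference of that size is not excluded by these wells. Among LINC-numbered genes with a mean of 4 to 5, 7 of 34 rose and 2 fell, and among those with a mean of at least 5, 10 of 26 rose and 2 fell. The median SD within groups was 0.24 in the first class and 0.16 in the second. In the whole table the share called also rose with level, from 4.63% of genes below 4 to 34.1% at 4 or more. The shares of all genes within these level classes were not computed, so nothing is read from the contrast of the classes. Just inside the level threshold lay LINC00910 (mean 4.01, difference 0.34) and LINC02910 (mean 4.01, difference -0.16). Just outside lay LINC01124 (mean 3.98, difference -0.18) and LINC01220 (mean 3.95, difference -0.43).

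Of the 16 SNHG-numbered host genes, 6 rose, none fell and 10 did not pass, and the median difference was 0.18. The share called, 37.5%, was near the 34.1% of all genes with a mean of at least 4. SNHG20 was below 4 in DMSO, and among the 15 at 4 or more in both groups 5 rose, with a median of 0.12. SNHG32, formerly C6orf48, hosts SNORD48 and SNORD52 in the major histocompatibility region and gave 8.67, 8.66 and 8.40 in DMSO and 9.96, 10.05 and 10.03 with E7386. The treated wells were within 0.1 of each other and more than 1 log2 unit above every DMSO well. It rose by 1.44 ± 0.10 (SE, n = 3 per group), 2.70-fold (limma adjusted p = 0.00018). SNHG17, host of the SNORA71 family, gave 6.78, 6.41 and 6.70 in DMSO and 7.78, 7.70 and 7.76 with E7386. The groups did not overlap, and it rose by 1.12 ± 0.11 (SE), 2.17-fold (limma adjusted p = 0.0008). GAS5, which accumulates in growth-arrested cells, gave 9.001, 9.21 and 8.75 in DMSO and 9.53, 9.81 and 9.71 with E7386. The lowest treated well lay 0.32 above the highest DMSO well. GAS5 rose by 0.70 ± 0.14 (SE), 1.62-fold (limma adjusted p = 0.012), and without E7386 well 2 the adjusted p was 0.0503.

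The other rises among the hosts were smaller. SNHG11 rose by 0.67 ± 0.13 (SE), from 4.43, 4.16 and 3.97 to 4.85, 4.95 and 4.77 (limma adjusted p = 0.011). SNHG20 rose by 0.67 ± 0.12 (SE), from 3.70, 3.77 and 4.04 to 4.65, 4.39 and 4.49 (limma adjusted p = 0.0081). Both started near 4, where RMA compresses differences, and both calls held without any 1 well. SNHG15 rose by 0.44 ± 0.10 (SE), from 6.42, 6.42 and 6.59 to 6.94, 6.83 and 6.99 (limma adjusted p = 0.016). Leaving out DMSO well 2 (0.053), E7386 well 1 (0.053) or E7386 well 3 (0.066) ended that call. SNHG29 rose by 0.35 ± 0.09 (SE), from 7.195, 7.245 and 7.131 to 7.559, 7.601 and 7.464 (limma adjusted p = 0.029), and that call was lost without any 1 of the 6 wells, at 0.052 to 0.10.

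Among the 10 that did not pass, SNHG7 gave 4.46, 4.47 and 4.76 in DMSO and 4.797, 5.138 and 4.99 with E7386. The groups did not overlap, yet the difference of 0.41 ± 0.13 (SE) had a limma adjusted p of 0.067, and 0.044 without DMSO well 3. Differences were 0.24 for SNHG16, 0.12 for SNHG9, 0.10 for SNHG8, 0.00 for SNHG3, -0.01 for SNHG19 and -0.01 for SNHG5. Those of SNHG6, SNHG12 and SNHG10 were -0.10, -0.20 and -0.30. The 95% intervals of SNHG5 (-0.24 to 0.21) and SNHG19 (-0.23 to 0.22) exclude differences as large as those of SNHG32 and SNHG17. Another 5 SNHG-numbered genes of the array, among them SNHG18 with a mean of 3.48, lay below 4.

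Many snoRNA host genes begin their transcripts with a C followed by a run of C and T, the terminal oligopyrimidine (TOP) start known from ribosomal protein genes. The starts are shown because the hosts that rose and those that did not can be set beside each other. The first 24 bases from the RefSeq start are given, with the leading C and T run in capitals. SNHG32 starts within chr6:31834916-31834939 (plus strand), SNHG12 within chr1:28581850-28581873 (minus), SNHG5 within chr6:85678710-85678733 (minus), SNHG19 within chr16:2155335-2155358 (minus), GAS5 within chr1:173869022-173869045 (minus) and SNHG17 within chr20:38435305-38435328 (minus).
SNHG32: CTTTTTgcgaagtgggctcgtggg
SNHG12: CCTTTCTCCCCgccgcattcccgg
SNHG5: CTTTTacgtcggccttcgcgagcg
SNHG19: CTTTTCggggtcgagtccgagggg
GAS5: agatgtgtttattttggagcctac
SNHG17: agtccttcgccgtccctcgccgtc

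A C followed by enough C and T to make a run of at least 5 bases opened 4 of 14 SNHG and GAS5 transcripts with a window (28.6%), against 4.07% of 35116 windows. Those 4 were SNHG12, SNHG32, SNHG5 and SNHG19, of which only SNHG32 was called. Annotated starts may lie some bases from the start used in these cells, and for GAS5 and SNHG17 the annotated transcript opens with A. Of the 6 called hosts with a window, 1 had such a run.

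The small RNAs inside the hosts were read next, and the difference between a host and its small RNAs was not tested. RefSeq places 35 measured small RNA genes inside 14 of the 80 genes. Of these, 4 rose, 1 fell and 30 did not pass (14.3% called), with a median difference of 0.06. The background was 18.6% of all genes and 34.1% of those with a mean of at least 4, which all of the 35 but SNORD99 reached. Inside SNHG17, SNORA71A, SNORA71B, SNORA71C and SNORA71D had differences of 0.17, 0.03, 0.05 and 0.00, and the highest upper limit of their 95% intervals was 0.43. The interval of SNHG17 itself ran from 0.85 to 1.38. Inside SNHG32, SNORD52 rose by 0.49 ± 0.12 (SE, limma adjusted p = 0.024), a call lost without DMSO well 2 (0.070), DMSO well 3 (0.075), E7386 well 1 (0.059) or E7386 well 3 (0.056). SNORD48 differed by 0.60 ± 0.22 (SE, limma adjusted p = 0.11).

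The 9 snoRNAs inside GAS5 had differences of -0.34 to 0.70. SNORD77 was the only one that passed, with a rise of 0.70 ± 0.16 (SE, limma adjusted p = 0.022), lost without DMSO well 1 (0.065), DMSO well 2 (0.052) or DMSO well 3 (0.063). SNORD76 differed by -0.14 and SNORD75 by 0.00. Inside SNHG12, which did not pass, SNORA44 rose by 0.56 ± 0.10 (SE, limma adjusted p = 0.0082) and SNORA16A differed by 0.32 (0.054). SNORA60 inside SNHG11 rose by 0.48 ± 0.13 (SE, limma adjusted p = 0.041), a call lost without any well but DMSO well 1, at 0.095 to 0.11. The unspliced host and the small RNA inside it cannot be told apart in such a row.

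**Figure D4:**
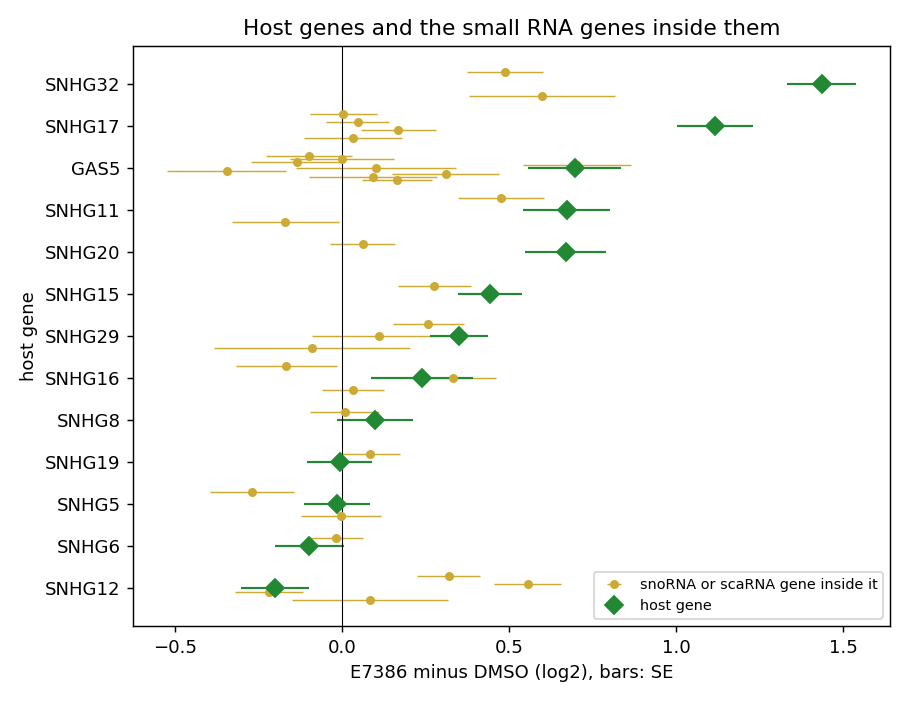
Difference, E7386 minus DMSO in log2 units with SE bars, of each host gene (green diamonds) and of the snoRNA or scaRNA genes inside it (yellow circles). The diamonds of SNHG32 and SNHG17 lie at 1.44 and 1.12, to the right of their snoRNAs, and those of SNHG19, SNHG5 and SNHG6 lie near 0.

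Of 20 measured genes that make snoRNA particles, 1 rose, 6 fell and 13 did not pass, with a median difference of -0.15. The share called, 35%, was near the 34.1% of all genes with a mean of at least 4, and the 30% lower were not tested against its 15.5%. These genes averaged 7.28 to 7.36 per DMSO well, above that background's median level of 6.383, so the levels were not matched. TCOF1, the nucleolar protein treacle, fell by 0.95 ± 0.09 (SE, limma adjusted p = 0.00054). RUVBL2 and PIH1D1, parts of the R2TP assembly complex, fell by 0.77 ± 0.10 and 0.66 ± 0.10 (adjusted p = 0.0018 and 0.0036). NOP10, a core protein of H/ACA particles, rose by 0.82 ± 0.13 (adjusted p = 0.0051). FBL, the methyltransferase of C/D particles, differed by -0.14 and DKC1, the pseudouridine synthase, by -0.08, neither called.

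Of 21 measured genes of nonsense-mediated decay, 1 rose, 3 fell and 17 did not pass, with a median of -0.03. The share called was 19%, beside 34.1% of all genes with a mean of at least 4, a level that 19 of the 21 reached. SMG1, the kinase of the central factor UPF1, rose by 0.44 ± 0.09 (SE, limma adjusted p = 0.013), and UPF1 differed by -0.14 (0.41). XRN2 fell by 0.42, PNRC2 by 0.35 and EIF4A3 by 0.32. The XRN2 call was lost without 3 of the wells (DMSO well 2, E7386 well 1 or 3), the PNRC2 call without any but DMSO well 3 and the EIF4A3 call without any 1 well, at adjusted p of up to 0.13. Of 12 TOP regulators, 2 rose, 1 fell and 9 did not pass, with a median of 0.02. Their share called was 25%, beside the same 34.1%. LARP6, which is known for binding collagen messenger RNA, rose by 0.67 ± 0.09 (SE, limma adjusted p = 0.0024). EIF4EBP1, the translation inhibitor 4E-BP1, rose by 0.58 (adjusted p = 0.023), lost without DMSO well 2, E7386 well 2 or E7386 well 3. RPS6KB1, the S6 kinase, fell by 0.50 (adjusted p = 0.025), lost without DMSO well 2, E7386 well 1 or E7386 well 3. LARP1, the TOP binding protein itself, differed by 0.11 (0.51).

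The nuclear body RNAs were lower with E7386, NEAT1 past the threshold and MALAT1 not. NEAT1 gave 9.74, 9.86 and 9.77 in DMSO and 9.02, 8.83 and 8.77 with E7386. Its highest treated well lay 0.72 below its lowest DMSO well. It fell by 0.92 ± 0.10 (SE, n = 3 per group) on the log2 scale, to a level 1.89-fold lower (limma adjusted p = 0.001), and was called without any 1 well. MALAT1 gave 11.35, 11.49 and 11.30 in DMSO and 11.06, 11.23 and 11.09 with E7386. The groups did not overlap, but they were only 0.07 apart. Its difference was -0.26 ± 0.10 (SE, 95% interval -0.48 to -0.03, limma adjusted p = 0.12). MIR612, a microRNA gene inside NEAT1 whose signal cannot be told apart from that of its host, fell by 0.63 ± 0.13 (SE, limma adjusted p = 0.015), a call lost without DMSO well 3 (0.053), E7386 well 2 (0.059) or E7386 well 3 (0.060).

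Of 28 measured paraspeckle proteins, 7 fell, 2 rose and 19 did not pass, with a median difference of -0.21. The share called, 32.1%, was near the 34.1% of all genes with a mean of at least 4, with 25% lower against 15.5%. The lean was not tested. The list averaged 7.78 to 7.83 per DMSO well, above that background's median level of 6.383, so the levels were not matched. SFPQ, an essential partner of NEAT1, gave 9.73, 9.87 and 9.85 in DMSO and 9.01, 9.01 and 9.03 with E7386. All treated wells were lower than all DMSO wells, and SFPQ fell by 0.80 ± 0.09 (SE, limma adjusted p = 0.00092). RBMX fell by 0.88 ± 0.16, RBM14 by 0.79 ± 0.10 and PSPC1 by 0.62 ± 0.09 (adjusted p of at most 0.0072). NONO, the partner of SFPQ, differed by -0.23 ± 0.08 (adjusted p = 0.093). ZC3H6 rose by 0.64 ± 0.10 (adjusted p = 0.0046).

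Of 23 nuclear speckle proteins, 11 fell, none rose and 12 did not pass, with a median difference of -0.30. The 47.8% lower stand beside 15.5% of all genes with a mean of at least 4, and this list was not tested as a set. It averaged 8.46 to 8.53 per DMSO well, above that background's median level of 6.383, so the levels were not matched. SRSF1, a splicing factor that MALAT1 binds, gave 9.61, 9.70 and 9.63 in DMSO and 8.52, 8.70 and 8.63 with E7386. The groups were separated by 0.91. SRSF1 fell by 1.03 ± 0.09 (SE), to a level 2.04-fold lower (limma adjusted p = 0.00039). SRSF7 fell by 0.77 ± 0.10 and SRSF2 by 0.75 ± 0.08 (adjusted p = 0.0025 and 0.00093). CLK2, a kinase of these factors, fell by 0.68 ± 0.19 (adjusted p = 0.045), a call lost without any well but E7386 well 2, at 0.063 to 0.13. Among 15 genes that process or stabilise MALAT1 and NEAT1, 3 fell, 1 rose and 11 did not pass, with a median of -0.09. The 26.7% called stand beside 34.1% of all genes with a mean of at least 4. POP1, a protein of RNase P, the enzyme that cuts the end of MALAT1, fell by 1.19 ± 0.10 (SE, limma adjusted p = 0.00035). POP7, of the same enzyme, rose by 0.52 ± 0.09 (adjusted p = 0.007), and the RNase P protein RPP14 differed by 0.06 (0.73). POP4 fell by 0.39 (adjusted p = 0.021), lost without DMSO well 2 or any 1 E7386 well. METTL3, the main writer of N6-methyladenosine, fell by 0.45 (adjusted p = 0.02), lost without any well but DMSO well 3.

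**Figure D5:**
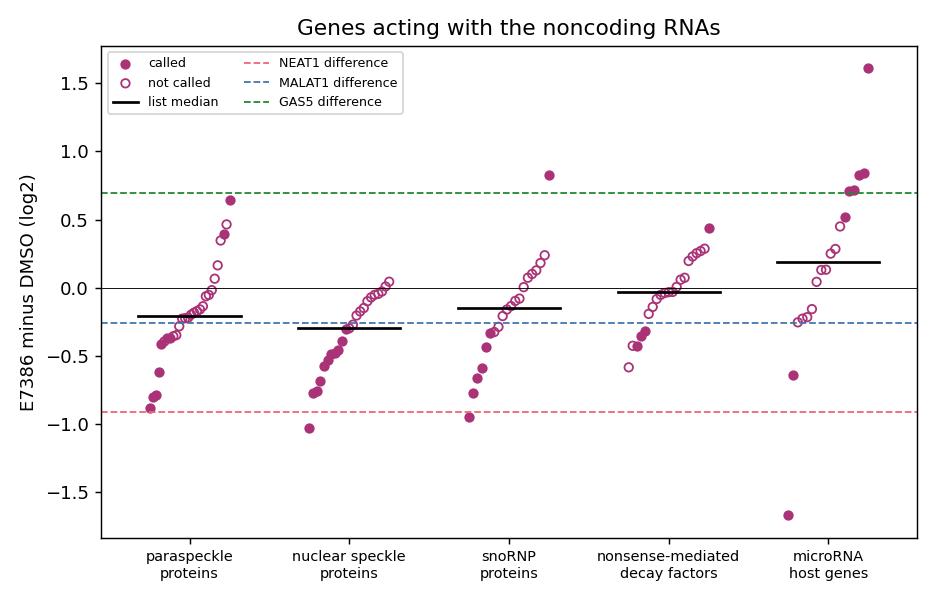
Difference, E7386 minus DMSO in log2 units, of each measured gene in 5 lists (filled circles called, open circles not), with black bars at the list medians and dashed lines at NEAT1, MALAT1 and GAS5. The speckle and paraspeckle medians lie at -0.30 and -0.21, and no called speckle gene lies above 0.

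H19 did not pass. It gave 5.05, 5.25 and 5.05 in DMSO and 5.08, 4.70 and 4.82 with E7386. E7386 well 1 lay among the DMSO wells, so the groups overlapped. Its difference was -0.25 ± 0.12 (SE, 95% interval -0.54 to 0.04, limma adjusted p = 0.23). IGF2, the growth factor gene beside it, was near the bottom of the scale, at 2.21, 2.58 and 2.57 in DMSO and 1.62, 2.21 and 2.60 with E7386, and differed by -0.31 ± 0.24 (adjusted p = 0.46). Of 16 genes of the H19 and IGF2 region and pathway, 3 rose, 2 fell and 11 did not pass, with a median of 0.07. The share called was 31.2%, and 10 of the 16 had a mean of at least 4. Beside it stand 18.6% of all genes and 34.1% of those with a mean of at least 4. IGF2R, which clears IGF2 from the cell surface, rose by 0.89 ± 0.09 (SE, limma adjusted p = 0.00061). IGF1R, the signalling receptor, rose by 0.47 ± 0.09 (adjusted p = 0.0081). The RNA-binding genes IGF2BP3 and IGF2BP1 fell by 0.57 ± 0.11 and 0.41 ± 0.09 (adjusted p = 0.01 and 0.016), and the IGF2BP1 call was lost without DMSO well 3 (0.051) or E7386 well 2 (0.064).

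Noncoding genes outside the symbol rule moved in both directions. Of 18 measured microRNA host genes, 6 rose, 2 fell and 10 did not pass, with a median of 0.19. The share called was 44.4%, and 10 of the 18 had a mean of at least 4. Beside it stand 18.6% of all genes and 34.1% of those with a mean of at least 4, and the shares were not tested. MIR22HG, a stress-responsive host of miR-22, gave 5.85, 5.82 and 5.50 in DMSO and 7.31, 7.26 and 7.42 with E7386. The groups were more than 1 log2 unit apart, and it rose by 1.61 ± 0.12 (SE, limma adjusted p = 0.0002). MIR503HG gave 6.08, 5.48 and 5.82 in DMSO and 4.12, 4.23 and 4.04 with E7386. It fell by 1.67 ± 0.16 (SE, limma adjusted p = 0.00051), more than any of the 80 genes. MIR100HG rose by 0.84 ± 0.11 and MIR181A1HG by 0.83 ± 0.13 (adjusted p = 0.0019 and 0.0047). A list of 40 other RNA genes held snoRNA hosts and other mostly long noncoding genes, with the unspliced TERC, RMRP and RPPH1, and with TUG1 and TINCR, which RefSeq annotates as protein-coding. In it 4 rose, 4 fell and 32 did not pass, with a median of 0.06. The share called was 20%, against the same backgrounds, and 19 of the 40 lay below a mean of 4. ZFAS1, a snoRNA host like the SNHG genes, rose by 0.63 ± 0.11 (SE, limma adjusted p = 0.0075). HCG18 rose by 0.86 ± 0.11 and CCAT1 by 0.77 ± 0.13 (adjusted p = 0.002 and 0.0055). TERC, the telomerase RNA, fell by 0.59 ± 0.14 (adjusted p = 0.023), a call lost without any 1 E7386 well (0.062 to 0.080).

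Of 17 measured Polycomb and RNA-binding silencing factors, proteins that long noncoding RNAs are known to bind, 1 rose, 6 fell and 10 did not pass, with a median of -0.21. The share called was 41.2%, against 34.1% of all genes with a mean of at least 4, and was not tested. These factors averaged 8.09 to 8.18 per DMSO well, above that background's median level of 6.383, so the levels were not matched. HNRNPD, an RNA-binding protein, fell by 0.77 ± 0.11 (SE, limma adjusted p = 0.0036). EZH2, the histone methyltransferase of Polycomb complex PRC2, fell by 0.61 ± 0.09 (adjusted p = 0.003). JARID2, a cofactor of that complex, rose by 0.66 ± 0.10 (adjusted p = 0.0039). HNRNPL fell by 0.42 ± 0.10 (adjusted p = 0.022), lost without DMSO well 2 or any 1 E7386 well (0.057 to 0.072).

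The nearest measured protein-coding genes on either side of the 80 in the RefSeq order, at whatever distance, moved in both directions. A gene called beside another is thus next in that order and not necessarily close to it. Of 152 such genes, 14 rose and 14 fell (18.4% called), with a median difference of -0.04. The backgrounds were 18.6% of all genes and 34.1% of those with a mean of at least 4. Their median levels were 3.755 and 6.383, against 5.519 for the neighbours, so neither is matched in level. Of the 158 pairs, 15 had both genes called, 6 in the same direction and 9 in opposite ones. The share of such pairs among other neighbouring genes was not computed, so nothing is read from these counts. SNHG32 and its neighbour NEU1, a lysosomal sialidase, rose together, NEU1 by 0.65 ± 0.10 (SE, limma adjusted p = 0.0038). In that order LINC00839 stands between ZNF37A and ZNF33B, which rose by 0.55 and 0.53. Each call was lost without DMSO well 1 or 3 or E7386 well 2 or 3. LINC02273 and FBXW7, a ubiquitin ligase subunit, fell together, FBXW7 by 0.53 ± 0.10 (adjusted p = 0.012).

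In other pairs the direction was opposite. RASSF10, beside LINC00958, fell by 1.79 ± 0.15 (SE, limma adjusted p = 0.00033). PRKCH, a protein kinase C gene beside LINC03033, fell by 0.48 ± 0.09 (adjusted p = 0.0095), and HIF1A on the other side differed by 0.25 (0.081). CENPL, a centromere gene beside GAS5, fell by 0.63 ± 0.10, and SWAP70, beside LINC02709, fell by 0.44 ± 0.08 (adjusted p = 0.0047 and 0.0088). OGFRL1, beside LINC00472, rose by 0.67 ± 0.10 (adjusted p = 0.0031). MRPS6, beside LINC00649, fell by 0.41, lost without any well but DMSO well 3, and LTBP3, beside NEAT1, rose by 0.37, lost without any well but DMSO well 1. LINC02693, LINC00963, LINC00941 and LINC00673 had no called neighbour, and SOX9, beside LINC00673, differed by 0.03 (adjusted p = 0.89). RefSeq shows 11 of the 80 overlapping a measured protein-coding gene, where signals could be shared. Among called genes these were GAS5, SNHG20, SNHG29, LINC01160 and LINC00847. Overlaps with genes that have no row were not searched. Of the 11 overlapped genes, ZFP62, under LINC00847, was the only one called (9.09%). The backgrounds were 18.6% of all genes and 34.1% of those with a mean of at least 4.

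Below the mean of 4 lay 671 genes, which are 89.3% of the symbol rule, and 21 of them were called (3.13%), 10 higher (1.49%) and 11 lower (1.64%). Of all 12504 genes below 4, 4.63% were called, 2.13% higher and 2.5% lower, so the share is near that of dim genes in general. LINC00520 gave 2.39, 2.02 and 2.10 in DMSO and 3.80, 4.05 and 4.08 with E7386. It rose by 1.81 ± 0.13 (SE, limma adjusted p = 0.00019) but stayed near the level of the median gene. LINC01776 rose by 1.08 ± 0.12 (adjusted p = 0.0011), LINC00471 by 0.89 ± 0.21 (0.026) and LINC00494 by 0.79 ± 0.21 (0.037). LINC00052 fell by 1.23 ± 0.20 (adjusted p = 0.005), LINC00173 by 0.75 ± 0.13 (0.0078), LINC02249 by 0.54 ± 0.14 (0.038) and LINC01004 by 0.50 ± 0.09 (0.0088). The calls of LINC00471 and LINC00494 were lost without any well but DMSO well 1, and that of LINC02249 without any but DMSO well 2. At these levels background cannot be told from expression.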

How the data were processed

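HSC3 cells were read on 6 arrays, 3 DMSO and 3 E7386 wells, grouped by their titles. The authors deposited log2 values made with RMA and affy 1.36.1, per the submitters' processing notes. Neither the probe set definition nor the genome build was found in the labels. The platform annotation gave 1 symbol to 22458 of 23786 rows and none to 1328. All sample columns entered the fits as deposited.

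A model with treatment as its term was fitted to all rows with limma 3.58.1 in R 4.3.3, using its empirical Bayes step with a constant prior. Two-sided tests were corrected by Benjamini-Hochberg across the 23786 rows, and calls required an adjusted p under 0.05. Every difference is the E7386 mean less the DMSO mean. The number of arrays limits the precision, and arrays give no read depth. The fit was tested on simulated data. RMA gives all arrays the same distribution, so shifts of total RNA per cell cannot be seen.

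The members and gene lists were chosen with earlier results of these data known, so their direction is no independent evidence. Named genes were the 12 largest rises and falls among called members with groups apart, the 5 highest means, MALAT1, NEAT1, H19, GAS5 and every SNHG member. The rule added the genes beside the level threshold, the 4 largest rises and falls below it, called neighbours of named members, up to 4 called genes per list and those known to bind or process a named RNA. RefSeq tables (GRCh38.p14) gave neighbours, small RNAs inside genes and promoter windows. Alternatives were repeated quantile normalization, median centring, leaving out dim rows, other variance priors, an ordinary two-sample test, array weights, a replicate block, a 1.5-fold minimum, each well left out, other level thresholds and updated symbols. Leaving out wells for list genes, neighbours and small RNAs was added after seeing the data.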

Additional observations from a re-analysis of the deposited data

How the results depend on the processing

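Of the 29 called genes, 16 stayed called without any 1 well (13 higher, 3 lower), and 14 were called in every fit except the 1.5-fold minimum, which called 6, with 6 higher and 0 lower. The ordinary two-sample test called 18 of the 80, 14 of them higher, and leaving rows with a mean under 4 out of the fit gave 8 lower calls. Leaving out 1 well gave 19 to 23 calls, 16 to 20 higher and 3 to 5 lower, and a median difference of 0.10 to 0.21. A level threshold of 5 gave 18 calls, 15 higher and 3 lower, among 40 genes, with a median of 0.30. The share called among all genes at 5 or more was not computed. The median was 0.025 with a threshold of 3.5 and 0.031 with a mean of at least 4 in DMSO alone, where other sets of genes are counted. Small differences turned in sign. Over the fits without 1 well, SNHG19 ran from -0.071 to 0.051, SNHG5 from -0.084 to 0.026, SNHG3 from -0.131 to 0.107 and LINC02910 from -0.292 to 0.008. SNHG5 was also 0.003 with array weights and SNHG3 -0.0002 after median centring. None of these 4 was called, and the cause was not tested. Same-numbered wells of the groups correlated at 0.0514, 0.123 and -0.0077 in their deviations, and differently numbered wells at -0.0977 to 0.0408. Correlations this weak, from 3 wells a group, cannot decide whether the numbers pair the wells. A replicate block gave 25 calls, 20 higher and 5 lower, 24 of them shared with the fit without it, and its adjusted p was 0.058 for LINC02709, 0.093 for LINC01356, 0.081 for LINC00958 and 0.053 for SNHG29. Over the named genes and all alternatives, 805 values kept direction and call, 163 lost the call, 6 gained it and 10 turned in sign. With 3 wells a group, no difference smaller than 0.33 was called among the 80.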

Other observations

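Some protein-coding genes next to the long noncoding genes in the RefSeq order, at whatever distance, had large differences. They were chosen here after their values were seen. PDE5A, the cyclic GMP phosphodiesterase beside LINC01061, rose by 2.22 ± 0.09 (SE, n = 3 per group, limma adjusted p = 5.7e-05), while LINC01061 differed by 0.00. SHCBP1, a gene of dividing cells and the next measured one after LINC00273 in order, fell by 1.16 ± 0.11 (adjusted p = 0.00049). LINC00273 differed by -0.08. KPNA2, an importin gene beside LINC00674, fell by 0.69 ± 0.08 (adjusted p = 0.0015), with LINC00674 at 0.27. LINC01278 rose by 0.61 ± 0.09 and lies between SPIN4, which fell by 0.49 ± 0.08, and AMER1, a negative regulator of Wnt signalling, which rose by 0.66 ± 0.10 (adjusted p = 0.007 and 0.0046).

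The microRNA host genes held further calls outside the naming rule, again chosen after their values were seen. MIR205HG, the host of the epithelial miR-205, rose by 0.71 ± 0.10 (SE, limma adjusted p = 0.0032), and MIR4435-2HG by 0.72 ± 0.11 (adjusted p = 0.0044). MIR181A2HG rose by 0.52 ± 0.09 and MIR210HG, host of the hypoxia-induced miR-210, fell by 0.64 ± 0.13 (adjusted p = 0.0067 and 0.015), both from means below 4.

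SNHG10 and GLRX5, and SNHG19 and TRAF7, start on opposite strands within 178 and 424 bases of each other. GLRX5 differed by -0.29 ± 0.09 (SE, limma adjusted p = 0.081) and TRAF7 by 0.13 ± 0.10 (0.44), neither called.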
